A study of Rattus norvegicus with 2 samples.

Results

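The genes described here carry vasomotor signals, the messages by which an artery wall sets its own tone. The list held 10 rat genes, Nos3, Edn1, Ednra, Ednrb, Agtr1a, Ace, Gucy1a1, Gucy1b1, Ptgis and Npr3, and 9 of them were found by symbol among the 32623 genes of the count matrix. Ptgis was not analysed here. Each gene was read in every cell class and in both libraries. The rule that picked them used symbols and no measured value, but the list was chosen with earlier results of these data known.

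In arteries, endothelial nitric oxide synthase makes nitric oxide, which diffuses into neighbouring vascular smooth muscle cells (VSMCs) and switches on soluble guanylyl cyclase, an enzyme built from an alpha and a beta subunit, whose product cyclic GMP relaxes the muscle. Endothelin and angiotensin II act the other way, through receptors on the muscle cell that raise calcium. Endothelin B receptors also remove endothelin from the circulation and, on endothelial cells, drive release of nitric oxide.

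The data are single-cell RNA-seq counts of carotid arteries of male SD (Sprague-Dawley) rats from the 10x Genomics platform, in 2 libraries. The control group was the left arteries, which had no treatment, and the case group was the stenotic right arteries, taken 28 days after repeated passage of an inflated balloon catheter and ligation of the external carotid branch. The labels give an age of 12 weeks for both groups. Each library pooled the arteries of 2 rats, the control vessel was the opposite artery of an operated animal, and the methods speak of 2 male rats in all, so the libraries may come from the same animals. With 1 library per group no difference between groups could be tested. Intervals below are exact 95% intervals of the counts, Poisson for levels, Clopper-Pearson for shares and the matching conditional interval for ratios. They cover counting error only, and neither animals nor libraries. Intervals on UMIs take each UMI as independent, so they also leave out the spread between cells.

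The control library held 3321 barcodes and 24968329 UMIs (unique molecular identifiers, each marking 1 captured transcript) and the case library 5656 barcodes and 28232614 UMIs. After filtering, 2203 control and 4871 case cells with at least 1000 UMIs remained. Cells were assigned to classes by the share of their UMIs in fixed marker genes, none of them a vasomotor gene. This gave 1075 control and 2425 case SMC-gated cells, 651 and 1090 fibroblast-gated cells, 55 and 229 endothelial-gated cells, 38 and 101 macrophage-gated cells and 15 and 32 Schwann-gated cells. Levels are given as CPM, UMIs per 1000000 UMIs of the class. A class is rich in its own markers by construction, so these do not check its name. The muscle gate took 48.8% of control and 49.8% of case cells of the labelled arteries. The median depth of a cell was 12436 UMIs in control and 5584 in case SMC-gated cells. Shares of cells with a UMI were therefore also taken after thinning each cell to 2000 UMIs. Counts of cells given without thinning, and subsets set by at least 1 UMI of a gene, depend on depth. A gate is a range and not a type: 42 control and 169 case SMC-gated cells lay within 20% above the threshold, and 330 control and 947 case cells met no gate. Unsupervised clusters split the SMC-gated cells by library. Of the control cells, 73.1% lay in 1 cluster, and 48.4% and 39.2% of the case cells in a pair of others. Other classes were less divided. The largest fibroblast cluster held 84.9% of control and 55.5% of case fibroblast-gated cells, and macrophage-gated cells of both libraries lay in the same cluster.

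Because Nos3 and Edn1 shared endothelial-gated cells as their main site and Gucy1a1 and Gucy1b1 encode the subunits of 1 enzyme, their promoters are shown for reference. These are the 250 bases just before the annotated start in RefSeq, build GRCr8, where all 9 genes had an entry. The Nos3 stretch lies at chr4:11706582-11706831, the Edn1 stretch at chr17:22666688-22666937, the Gucy1a1 stretch at chr2:169779624-169779873 and the Gucy1b1 stretch at chr2:169696988-169697237, all on the minus strand and all printed 5′ to 3′ in the direction of the gene. Capitals mark the only match to a searched motif.
Nos3: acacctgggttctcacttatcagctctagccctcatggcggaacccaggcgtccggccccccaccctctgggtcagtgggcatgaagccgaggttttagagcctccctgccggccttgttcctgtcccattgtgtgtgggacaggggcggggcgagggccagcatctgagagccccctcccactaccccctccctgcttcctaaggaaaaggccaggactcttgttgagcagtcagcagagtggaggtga
Edn1: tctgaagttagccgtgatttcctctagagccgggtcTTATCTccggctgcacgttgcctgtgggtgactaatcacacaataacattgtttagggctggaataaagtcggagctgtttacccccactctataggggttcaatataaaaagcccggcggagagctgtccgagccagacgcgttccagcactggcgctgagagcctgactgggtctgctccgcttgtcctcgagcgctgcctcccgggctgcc
Gucy1a1: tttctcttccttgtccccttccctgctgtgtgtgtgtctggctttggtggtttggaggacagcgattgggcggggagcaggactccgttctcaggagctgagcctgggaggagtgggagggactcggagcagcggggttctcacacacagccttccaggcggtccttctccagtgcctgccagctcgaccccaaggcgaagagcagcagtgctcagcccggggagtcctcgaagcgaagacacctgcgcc
Gucy1b1: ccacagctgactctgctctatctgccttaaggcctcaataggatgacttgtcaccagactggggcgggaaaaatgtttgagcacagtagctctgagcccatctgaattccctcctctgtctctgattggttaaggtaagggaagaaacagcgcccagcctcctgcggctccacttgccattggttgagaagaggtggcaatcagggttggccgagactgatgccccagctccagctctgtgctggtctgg
The Gucy1a1 and Gucy1b1 genes lie in the same orientation on chromosome 2 with 0 protein-coding genes annotated between them. Searched on both strands for the CArG box, the AP-1 motif TGANTCA, the GATA motif AGATAA and the ETS motif CCGGAA, the 9 promoters held 1 match, a GATA motif in Edn1 read on the opposite strand as TTATCT. Of 33469 rat promoters of this length, 1.5% held a CArG box, 6.34% the AP-1 motif, 10.3% the GATA motif and 12.6% the ETS motif. A match is a string of letters and not a bound site, and a missing match says nothing of a factor.

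Each class held a different set of these genes. Nos3, Edn1 and Ace had their highest level in endothelial-gated cells, Gucy1a1 and Gucy1b1 in SMC-gated cells, Ednra and Agtr1a in fibroblast-gated cells, and Ednrb in macrophage-gated cells, in both libraries, among classes with at least 30 cells. In control, which ranks 4 classes, the interval of the highest class stayed clear of the next for each of these genes. The 15 control Schwann-gated cells were too few to be ranked, and their 7 Ednrb UMIs, 90.8 CPM (36.5 to 187), overlapped the macrophage interval. In case the 32 Schwann-gated cells were ranked, and the highest class stayed clear of the next for each gene but Gucy1b1, where 1 Schwann UMI left a wide interval. Schwann-gated case cells had 0 UMIs of Ace and Ednra, with an upper bound of 37.5 CPM. That bound overlapped the highest class for both, at 24.7 to 47.9 CPM for Ace and 10.8 to 16.7 CPM for Ednra. Npr3 (ENSRNOG00000019184), the natriuretic peptide clearance receptor, had only 14 UMIs in all barcodes, and its level could not be compared at this depth.

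**Figure D1:**
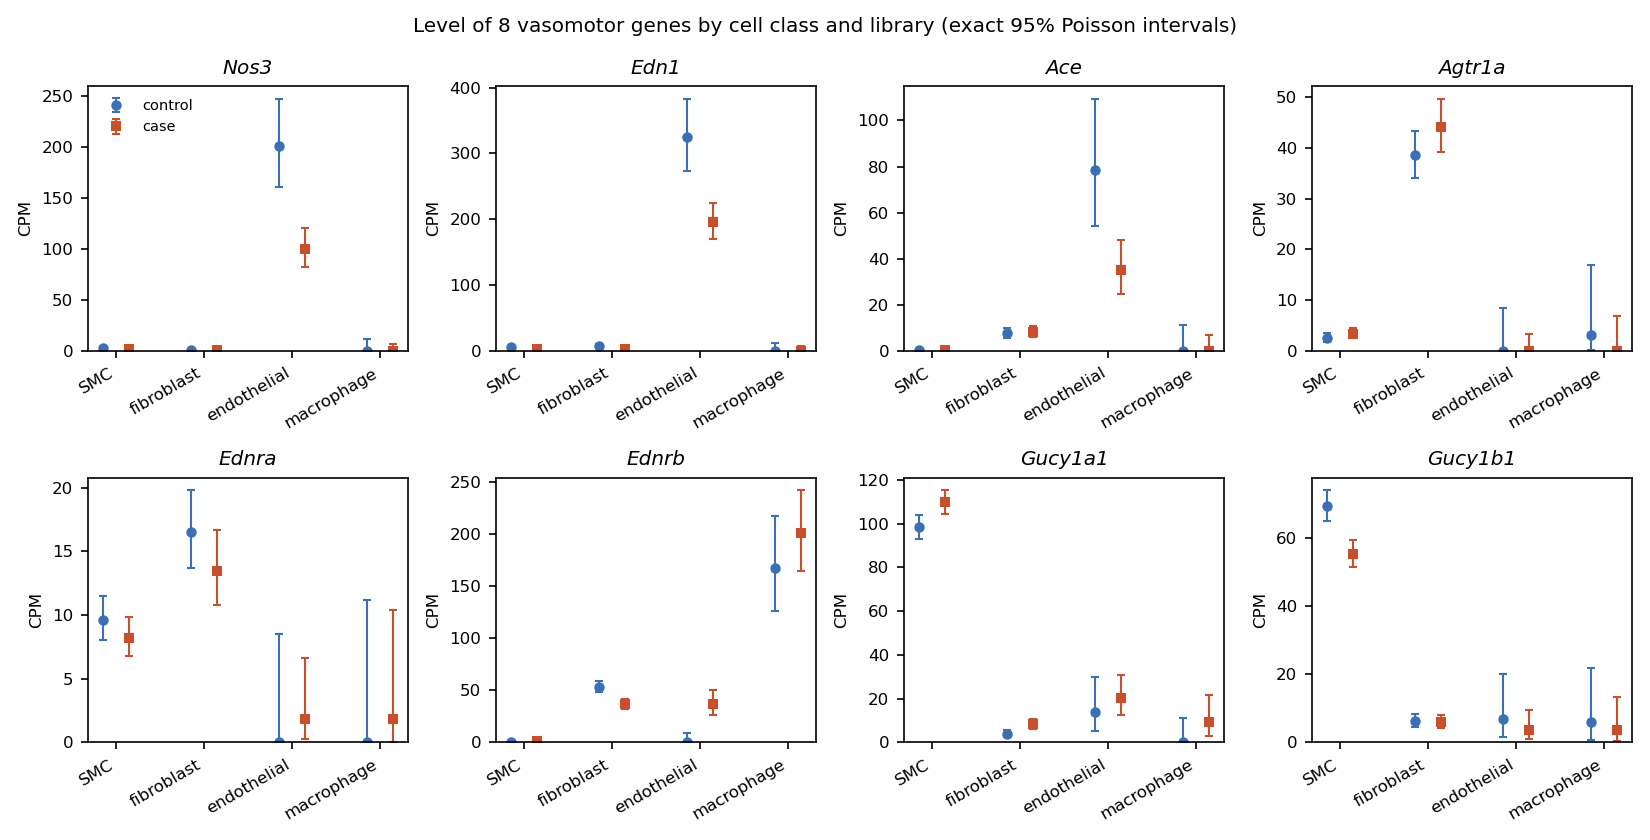
Level of 8 genes (CPM, linear axis from 0, a separate scale for each gene) in SMC-, fibroblast-, endothelial- and macrophage-gated cells of the control (circles) and case (squares) library. Bars are exact 95% Poisson intervals of the summed UMIs. Nos3, Edn1 and Ace stand out in endothelial-gated cells, where the case level was the lower one, and Ednrb in macrophage-gated cells at 167 and 201 CPM.

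Nos3 (ENSRNOG00000009348), the endothelial synthase of nitric oxide, fell in endothelial-gated cells of the stenotic artery. Its 87 control UMIs came to 200.5 CPM (161 to 247) and its 109 case UMIs to 100.2 CPM (82.3 to 121). The intervals did not overlap, and the log2 ratio of case over control was −1.001 (−1.42 to −0.58). A Nos3 UMI was seen in 34 of 55 control and 73 of 229 case cells, and in 35.2% and 14.8% of cells thinned to equal depth. Other classes held little of it: SMC-gated cells had 2.71 and 1.88 CPM, fibroblast-gated cells 0.84 and 0.79 CPM, and macrophage-gated cells 0 UMIs in both libraries. The fall sat at the 2-fold limit. Within the cluster that held 48 control and 128 case endothelial-gated cells (chosen after the data were seen) the log2 ratio was −0.54 (−0.97 to −0.10), under 2-fold. The fall was no longer called with cells of at least 2000 UMIs, where the log2 ratio was −0.99, or with doubled gate thresholds, where it was −0.91.

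Edn1 (ENSRNOG00000014361), which encodes the vasoconstrictor endothelin-1, was likewise lower in case endothelial-gated cells, by less than 2-fold. It had 141 UMIs and 325 CPM (274 to 383) in control and 213 UMIs and 196 CPM (170 to 224) in case, a log2 ratio of −0.73 (−1.05 to −0.41) with intervals apart. Single cells varied widely, with up to 20 Edn1 UMIs in 1 control and 11 in 1 case cell. Before thinning, 31 of 55 control and 99 of 229 case cells held at least 1. Thinned to equal depth, 33.3% (21.1 to 47.5) of control and 26.4% (20.6 to 32.8) of case cells did, with overlapping intervals. The share of Nos3 in the summed Nos3 and Edn1 UMIs was 38.2% (31.8 to 44.8) in control and 33.9% (28.7 to 39.3) in case. That share did not differ beyond counting error, and it covers no other dilator or constrictor gene.

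Edn1 UMIs were also counted outside endothelial-gated cells, at a low level. SMC-gated cells had 74 control UMIs (5.74 CPM) and 45 case UMIs (3.13 CPM), a log2 ratio of −0.87 (−1.44 to −0.32). Fibroblast-gated cells had 55 (7.71 CPM) and 19 (3.01 CPM), a log2 ratio of −1.36 (−2.19 to −0.58). Both lay below the 10 CPM asked of a tested gene and were not called. The control SMC level was 1.77% of the endothelial one, whereas the 8 endothelial markers ranged from 0.0394% to 10.7% with a median of 0.0911%. Edn1 lay above most of them, and so did Nos3 at 1.35%, while the marker Erg at 10.7% lay above both. Those markers set the gate, which can lower their level in other classes, and carry-over of endothelial RNA was not tested.

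Ace (ENSRNOG00000062101), the enzyme that makes angiotensin II from angiotensin I, fell in endothelial-gated cells from 34 UMIs and 78.4 CPM (54.3 to 109) to 38 UMIs and 34.9 CPM (24.7 to 47.9), a log2 ratio of −1.17 (−1.87 to −0.45). Thinned to equal depth, 16.7% (7.92 to 29.3) of control and 6.48% (3.59 to 10.6) of case cells held an Ace UMI, with overlapping intervals. When each cell was given the same weight the log2 ratio was −0.82, and within the same cluster it was −0.80 (−1.54 to −0.06), and the fall was called in neither. Fibroblast-gated cells also held Ace UMIs, with 54 in control (7.57 CPM) and 51 in case (8.09 CPM) and a log2 ratio of 0.10 (−0.49 to 0.67). That level was 9.66% of the endothelial one in control and 23.2% in case, above the range of the 8 endothelial markers in fibroblast-gated cells, which ended at 5.09% and 3.61%. Those markers set the gate, which can lower their level in other classes, and carry-over of endothelial RNA was not tested. SMC-gated cells held 5 and 7 Ace UMIs.

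Ednrb (ENSRNOG00000010997), the endothelin B receptor, was the only one of the 9 genes called as higher in case in any of the 3 classes compared, again in endothelial-gated cells. None of the 55 control cells held an Ednrb UMI, where 3 UMIs would be 6.91 CPM, and 25 of 229 case cells held 40 UMIs, 36.8 CPM (26.3 to 50.1), at least 5.32-fold higher when the control class is set to that floor of 3 UMIs. The exact interval of the log2 ratio began at 2.05. It passed the filter on low levels through the case library only, and a gene that does so had to differ. The 25 cells had a median of 0.304% of their UMIs in endothelial markers, near the 0.327% of the other case cells. Their median was 0.000% in both macrophage and fibroblast markers, and 0.123% in SMC markers, against 0.0942% in the other case cells. Cells that also met the gate of another class had been set aside beforehand. Scrublet called 0 doublets among all endothelial-gated cells, these 25 included. In case it called just 1 of the 45 cells that met several gates. Its 0 therefore says little of whether the 25 were single cells. Whether RNA of other cells was present in them was not tested. Thinning left 0 UMIs in 54 control cells, which allows a share of up to 6.60%, and UMIs in 13 of 216 case cells (6.02%), a difference not detectable at that depth.

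In all, 5 of the 9 genes passed the filter in endothelial-gated cells, 1 rose and 2 fell. Among the 6151 genes tested there, 6.94% rose and 10.7% fell by these criteria. The median log2 ratio was −0.87 over the 4 of these genes with a ratio and −0.12 over all genes tested, and 55 control cells with 433914 UMIs lay behind each control value. In the same cells the fibroblast markers (6 detected in control, 5 in case) summed to 1056 and 482 CPM, the SMC markers to 1431 and 1328 CPM, the macrophage markers to 13.8 and 9.19 CPM and the pericyte markers (3 of 6 detected in each) to 277 and 80.0 CPM, and their part in these results was not tested. Scaling by trimmed mean of M values (TMM), which raised every endothelial log2 ratio by 0.25, left Nos3 at −0.75 and Ace at −0.92, neither called. It raised ratios by 0.12 in SMC-gated and 0.08 in fibroblast-gated cells and turned none of the 18 ratios of these genes over.

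**Figure D2:**
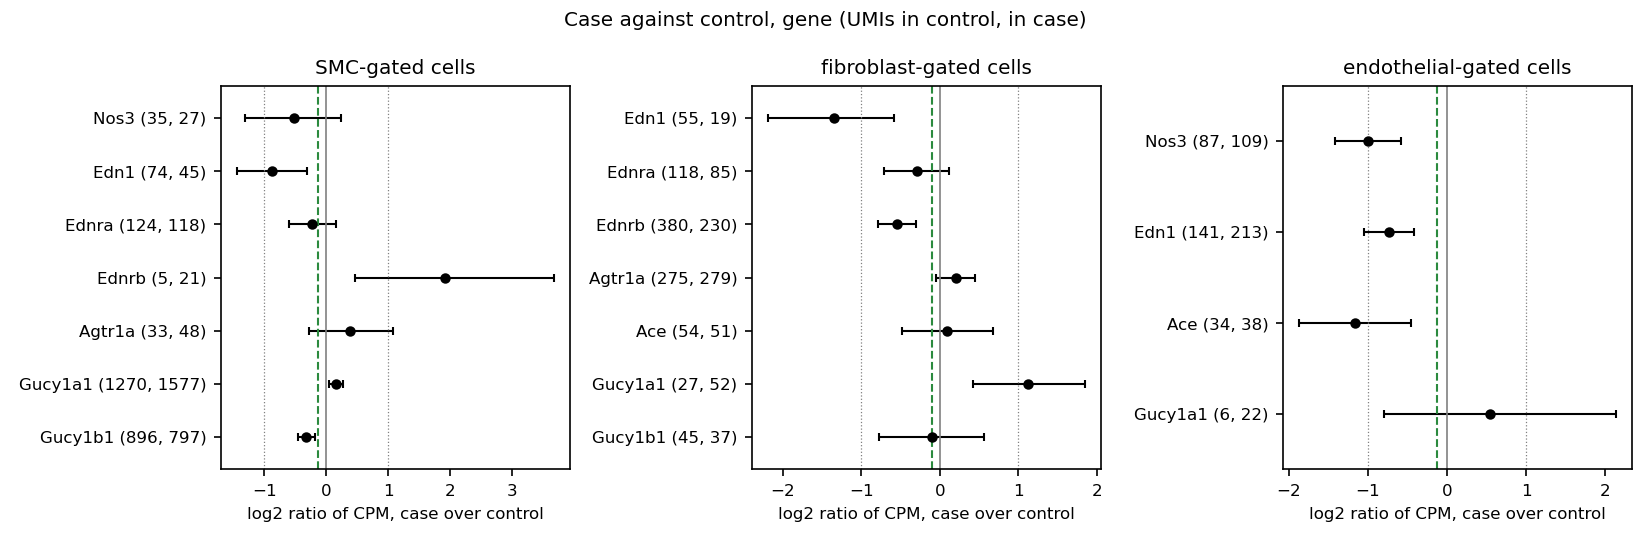
Log2 ratio of CPM, case over control, for each vasomotor gene with at least 20 UMIs and a UMI in both libraries, in SMC-, fibroblast- and endothelial-gated cells, with the UMIs of both libraries beside the name. Bars are exact 95% intervals, dotted lines mark 2-fold and the dashed line the median of all genes tested (−0.13, −0.10 and −0.12). Nos3, Edn1 and Ace lie left of the dashed line in endothelial-gated cells with intervals that end below 0, and Ednrb, with 0 control UMIs there, has no point.

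Endothelial-gated cells were also split by markers of small-vessel endothelium. Plvap (a protein of the diaphragms of caveolae and fenestrae) or Emcn (endomucin, found on capillary and venous endothelium) was seen in 11 of 55 control cells (20%) and 89 of 229 case cells (38.9%). In the cells without either gene, Nos3 went from 71 UMIs and 203 CPM to 93 UMIs and 138 CPM, a log2 ratio of −0.55 (−1.02 to −0.09), which is under 2-fold. Edn1 in those cells had 289 and 249 CPM, a log2 ratio of −0.22 (−0.58 to 0.15), and the libraries did not differ beyond counting error. Ace had 30 and 34 UMIs there, 85.9 and 50.6 CPM.

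In the cells with Plvap or Emcn, Nos3 had 16 UMIs in each library, 189 CPM (108 to 307) in control and 38.4 CPM (22.0 to 62.4) in case. Edn1 had 40 UMIs and 473 CPM (338 to 644) in control and 46 UMIs and 111 CPM (80.9 to 147) in case, a log2 ratio of −2.10 (−2.74 to −1.45). Of the 11 control cells behind these values, 6 lay in another unsupervised cluster than most case cells and 5 in the same one. Of the control UMIs, 14 of 16 for Nos3 and 39 of 40 for Edn1 lay in 6 cells of the cluster that held most other endothelial-gated cells, whereas 84 of the 89 case cells belonged to a different cluster. The endothelial-gated cells of that different cluster were 7 in control and 100 in case. Edn1 there had 1 UMI (20.9 CPM, 0.53 to 117) in control and 56 UMIs (127 CPM, 95.8 to 165) in case. Those intervals overlapped, and with 1 control UMI no direction is read. Nos3 had 2 and 13 UMIs there (41.9 and 29.4 CPM). In the cluster with most cells, Edn1 had 140 and 153 UMIs, 363 CPM (305 to 428) and 242 CPM (205 to 283).

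Nearly all the Ednrb of the case endothelium was in cells with Plvap or Emcn, which held 37 of the 40 UMIs and 88.9 CPM (62.6 to 123). The cells without them held 3 UMIs, 4.46 CPM (0.92 to 13.1). The 11 control cells of this kind had 0 UMIs, with an upper bound of 43.6 CPM, below the case interval. Of the Ednrb UMIs, 36 lay in the 84 case cells of 1 cluster, to which 5 of the 11 control cells belonged. Over all endothelial-gated cells of that cluster, Ednrb had 0 UMIs in 7 control cells, with an upper bound of 77.2 CPM, and 37 in 100 case cells, 83.8 CPM (59.0 to 115), so a difference was not detectable there. A change in level and a change in the kinds of endothelial cell collected cannot be told apart.

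**Figure D3:**
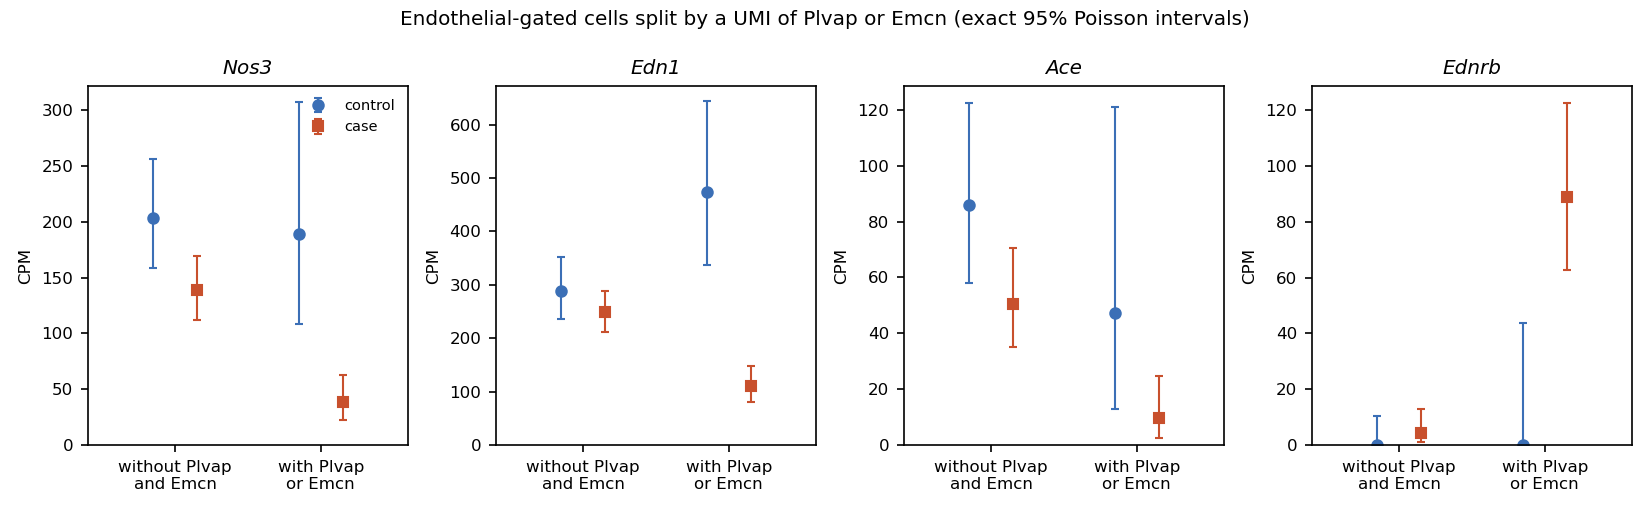
CPM of Nos3, Edn1, Ace and Ednrb in endothelial-gated cells without and with a UMI of Plvap or Emcn, in the control (circles) and case (squares) library, with exact 95% Poisson intervals. Ednrb appears in case cells with Plvap or Emcn at 88.9 CPM, where Nos3 was at 38.4 CPM and Edn1 at 111 CPM, and the control points of that group rest on 11 cells.

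Outside the endothelium, Ednrb was highest, among classes of at least 30 cells, in macrophage-gated cells, with 55 UMIs and 167 CPM (126 to 217) in control and 108 UMIs and 201 CPM (165 to 242) in case. The log2 ratio was 0.27 (−0.22 to 0.76) and the intervals overlapped. It was carried by some macrophage-gated cells only, 18 of 38 and 33 of 101, and the share of thinned cells with a UMI, 27.0% and 16.7%, ran against the CPM, so no order is read. Cells with Ednrb had a share of UMIs in macrophage markers (median 1.13% and 1.15%) near that of the cells without it (1.17% and 1.12%).

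In fibroblast-gated cells the Ednrb level was lower in the stenotic artery. It had 380 UMIs and 53.3 CPM (48.0 to 58.9) in control and 230 UMIs and 36.5 CPM (31.9 to 41.5) in case. The intervals were apart and the log2 ratio was −0.55 (−0.79 to −0.31), under 2-fold. With doubled gate thresholds the ratio was −0.87 and after thinning −0.82, both outside that interval and still under 2-fold. The share of thinned cells with a UMI was 7.43% (5.49 to 9.79) and 4.69% (3.49 to 6.15), and these intervals overlapped.

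Within the fibroblasts, Ednrb lay mostly in cells rich in Gfpt2, an enzyme of hexosamine synthesis. These were 163 control and 298 case cells with at least 20 Gfpt2 UMIs per 10000, and they held 277 of the 380 control and 175 of the 230 case UMIs, 121 CPM (108 to 137) and 80.8 CPM (69.2 to 93.7). Pi16-positive cells, marked by a peptidase inhibitor of adventitial fibroblasts, had 20.1 CPM (16.1 to 24.8) and 11.4 CPM (7.66 to 16.4). The log2 ratio was −0.59 (−0.87 to −0.31) in the former and −0.81 (−1.47 to −0.19) in the latter, so the lower case level was present within both subsets. Cells with the matrix protein gene Postn and neither of the others were 5 in control and 105 in case, and the case cells had 13.0 CPM of Ednrb.

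SMC-gated cells held almost no Ednrb, 5 UMIs (0.39 CPM) in control and 21 UMIs (1.46 CPM) in case. A single case cell held 9 of the 21. The log2 ratio of 1.91 (0.47 to 3.68) was not stable, at −0.14 with doubled and 4.37 with halved gate thresholds, and no direction is read from it. Cells that met no gate had 58 and 138 Ednrb UMIs, 35.9 CPM in both libraries, and Schwann-gated cells 7 and 3 UMIs.

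Ednra (ENSRNOG00000012721), the endothelin A receptor through which endothelin-1 contracts muscle, was low and shared by muscle and fibroblasts. SMC-gated cells had 124 UMIs and 9.62 CPM (8.00 to 11.5) in control and 118 UMIs and 8.22 CPM (6.80 to 9.84) in case. Fibroblast-gated cells had 118 UMIs and 16.5 CPM (13.7 to 19.8) in control and 85 UMIs and 13.5 CPM (10.8 to 16.7) in case. In each library the fibroblast interval lay above that of SMC-gated cells, and within each class the libraries overlapped, with log2 ratios of −0.23 (−0.60 to 0.15) and −0.30 (−0.72 to 0.12). Thinned to equal depth, shares of cells with an Ednra UMI did not separate the classes. In control they were 2.26% (1.24 to 3.77) of fibroblast-gated and 1.98% (1.21 to 3.04) of SMC-gated cells. In case they were 2.49% (1.63 to 3.62) and 1.56% (1.10 to 2.14).

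Among fibroblasts the pattern of Ednra was unlike that of Ednrb. Pi16-positive cells had 21.3 CPM (17.1 to 26.1) of Ednra in control against 10.1 CPM (6.39 to 15.1) in Gfpt2-high cells. In case they had 16.6 CPM (11.9 to 22.4) against 7.85 CPM (4.57 to 12.6), with overlapping intervals. The Postn-positive case cells had 13 Ednra UMIs, 21.1 CPM (11.3 to 36.1). Endothelial-gated cells held 0 and 2 Ednra UMIs and macrophage-gated cells 0 and 1. The endothelin receptors thus split by class: Ednra made up 96.1% (91.2 to 98.7) of the summed receptor UMIs in control and 84.9% (77.8 to 90.4) in case SMC-gated cells, 23.7% and 27.0% in fibroblast-gated cells, and 0% and 0.917% in macrophage-gated cells. The case share in muscle includes the 9 Ednrb UMIs of 1 cell.

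**Figure D4:**
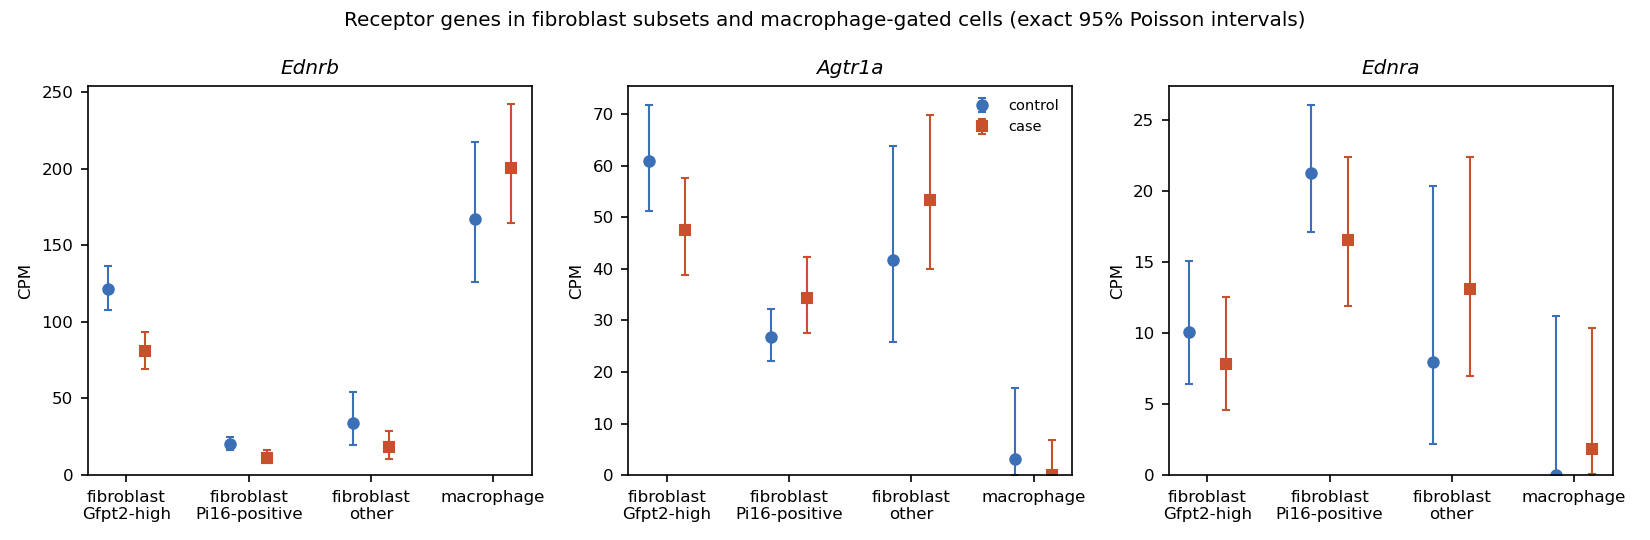
CPM of the receptor genes Ednrb, Agtr1a and Ednra in Gfpt2-high, Pi16-positive and other fibroblast-gated cells and in macrophage-gated cells, control (circles) and case (squares), with exact 95% Poisson intervals. Ednrb was highest in macrophage-gated and Gfpt2-high cells, while Ednra had its highest control level in Pi16-positive cells at 21.3 CPM.

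Agtr1a (ENSRNOG00000018346), the type 1a receptor of angiotensin II, was a fibroblast transcript in these arteries. Fibroblast-gated cells had 275 UMIs and 38.5 CPM (34.1 to 43.4) in control and 279 UMIs and 44.2 CPM (39.2 to 49.7) in case. The intervals overlapped and the log2 ratio was 0.20 (−0.05 to 0.44), so the libraries did not differ beyond counting error. SMC-gated cells had 33 UMIs (2.56 CPM) and 48 UMIs (3.34 CPM), endothelial-gated cells 0 UMIs in both libraries, and macrophage-gated cells 1 and 0.

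The fibroblast subsets differed in Agtr1a within the control library, with 60.9 CPM (51.2 to 71.9) in Gfpt2-high and 26.9 CPM (22.2 to 32.3) in Pi16-positive cells. In case they were nearer, at 47.5 CPM (38.8 to 57.7) and 34.3 CPM (27.5 to 42.3), and the intervals overlapped. The 105 Postn-positive case cells had 58.5 CPM (41.0 to 81.0). Agtr1b, the closely related type 1b receptor gene that rodents carry, lay on the muscle side. Agtr1a made up 98.9% of the summed Agtr1a and Agtr1b UMIs in control and 97.9% in case fibroblast-gated cells, but 28.4% (20.5 to 37.6) and 18.8% (14.2 to 24.2) in SMC-gated cells. How the counting divided reads between these closely related paralogs was not checked and is uncertain.

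Gucy1a1 (ENSRNOG00000012302) and Gucy1b1 (ENSRNOG00000012060), the subunits of the nitric oxide receptor, were muscle genes, and their case-to-control ratios lay close to no change, on opposite sides of it. Gucy1a1, the alpha subunit, had 1270 UMIs and 98.5 CPM (93.2 to 104) in control and 1577 UMIs and 110 CPM (104 to 115) in case SMC-gated cells, a log2 ratio of 0.16 (0.05 to 0.26). Gucy1b1, the beta subunit, had 896 UMIs and 69.5 CPM (65.0 to 74.2) in control and 797 UMIs and 55.5 CPM (51.7 to 59.5) in case, a log2 ratio of −0.32 (−0.46 to −0.19). Neither reached 2-fold. Under TMM scaling the ratio of Gucy1a1 was 0.28, and over 9 alternatives the ratios ran from 0.15 to 0.28 for Gucy1a1 and from −0.44 to −0.17 for Gucy1b1. The 6 SMC markers summed to 26213 CPM in control and 21380 CPM in case, and their part in these ratios was not tested.

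The share of Gucy1a1 in the summed UMIs of both subunits does not depend on scaling between libraries. It was 58.6% (56.5 to 60.7) in control and 66.4% (64.5 to 68.3) in case SMC-gated cells, with intervals apart. It was higher in case in each subset of the muscle: 58.6% (55.8 to 61.4) and 66.4% (64.0 to 68.7) in the bulk of the cells, 59.6% (56.1 to 62.9) and 65.3% (61.5 to 68.9) in Notch1-positive cells, and 52.5% (43.2 to 61.7) and 74.0% (65.1 to 81.6) in cells with at least 10 UMIs of the matrix gene Spp1 per 10000. Among these muscle subsets the intervals overlapped in Notch1-positive cells only. In fibroblast-gated cells, where both subunits were sparse, the shares were 37.5% (26.4 to 49.7) and 58.4% (47.5 to 68.8), and the intervals overlapped. A single control cell held 9 of the 45 Gucy1b1 UMIs there.

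**Figure D5:**
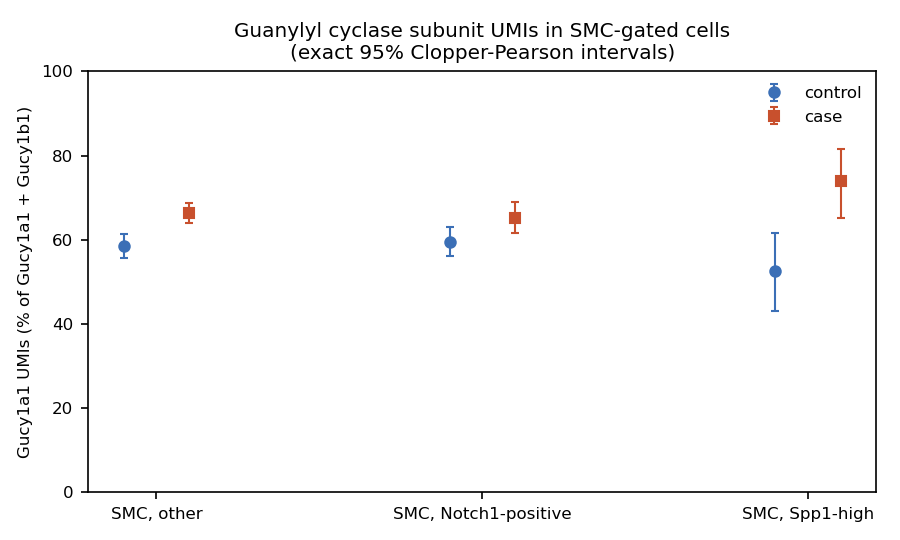
Share of Gucy1a1 in the summed Gucy1a1 and Gucy1b1 UMIs (%, axis from 0 to 100) in 3 subsets of SMC-gated cells of the control (circles) and case (squares) library, with exact 95% Clopper-Pearson intervals. The case share was the higher one in each subset, by the widest gap in Spp1-high cells (52.5% and 74.0%).

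By cell, thinned to equal depth, a Gucy1a1 UMI was found in 16.9% (14.7 to 19.4) of control and 18.7% (17.2 to 20.4) of case SMC-gated cells and a Gucy1b1 UMI in 13.4% (11.3 to 15.6) and 9.89% (8.72 to 11.2). Only the Gucy1b1 intervals were apart. Both subunits were seen together in 18 of 1011 control and 36 of 2375 case cells. Gucy1b1 was found in 10.5% of control cells with a Gucy1a1 UMI and in 13.9% of the others, and in 8.09% and 10.3% in case, so at this depth a UMI of one subunit did not mark cells with the other. In Spp1-high cells Gucy1b1 had 57 UMIs and 92.8 CPM (70.3 to 120) in control and 31 UMIs and 50.6 CPM (34.4 to 71.8) in case.

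Other classes held few subunit UMIs. Gucy1a1 had 27 UMIs (3.78 CPM) in control and 52 (8.24 CPM) in case fibroblast-gated cells, a log2 ratio of 1.12 (0.43 to 1.85) that lay below the level asked of a tested gene. The mean of both libraries was under 10 CPM, and 1 case cell held 7 of the 52 UMIs. Gucy1b1 there had 6.31 and 5.87 CPM. Endothelial-gated cells had 6 and 22 Gucy1a1 UMIs, 13.8 CPM (5.07 to 30.1) and 20.2 CPM (12.7 to 30.6).

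By the criteria used for the endothelium, 2 of the 9 genes passed the filter in SMC-gated cells and 0 were called. There 1.05% of 6593 genes tested rose and 2.34% fell. In fibroblast-gated cells 3 passed and 0 were called, where 1.62% of 6226 genes rose and 2.44% fell. The median log2 ratio of the genes that passed was −0.08 in SMC-gated and −0.30 in fibroblast-gated cells, beside −0.13 and −0.10 over all genes tested.

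A further list of 78 vasomotor genes covered other enzymes, receptors and effectors of the same pathways, and 76 were in the matrix. In SMC-gated cells 30 passed the filter, 1 rose, 1 fell and 28 were not called. The riser was Agtr1b, with 83 UMIs and 6.44 CPM (5.13 to 7.98) in control and 207 UMIs and 14.4 CPM (12.5 to 16.5) in case, a log2 ratio of 1.16 (0.79 to 1.55). Its share of thinned cells was 1.29% and 2.82%, and it was higher in both the bulk of the muscle (log2 ratio 1.06, 0.60 to 1.54) and Notch1-positive cells (1.15, 0.47 to 1.86). The gene that fell was Gna11, a G protein subunit that couples angiotensin and endothelin receptors to calcium release, from 224 UMIs and 17.4 CPM to 123 UMIs and 8.56 CPM, a log2 ratio of −1.02 (−1.35 to −0.70). Gna11 lost its call under 6 of 10 alternatives, with ratios of −0.90 to −1.02. Agtr1b in control and Gna11 in case lay below the 10 CPM asked of the mean. Each passed the filter through its higher library only, and a gene that does so had to differ. Beside these counts stand the 1.05% that rose and 2.34% that fell of all genes tested in this class. Without a call, Tbxa2r, the thromboxane receptor, had 34.6 and 22.1 CPM, and Pde5a, which breaks down cyclic GMP, 92.2 and 72.0 CPM. Npr1, the natriuretic receptor that makes cyclic GMP at the membrane, had 86.6 and 82.4 CPM with a log2 ratio of −0.07 (−0.19 to 0.05).

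In endothelial-gated cells 21 of the 76 passed, 0 rose, 4 fell and 17 were not called, where 6.94% of all genes tested rose and 10.7% fell. The cyclic nucleotide phosphodiesterases Pde3a and Pde3b fell from 69.1 to 26.7 CPM and from 59.9 to 28.5 CPM, with log2 ratios of −1.38 (−2.16 to −0.59) and −1.07 (−1.87 to −0.26). The signalling genes Gnaq and Plcb4 fell from 30.0 to 11.9 CPM and from 96.8 to 47.8 CPM, log2 ratios of −1.33 (−2.55 to −0.10) and −1.02 (−1.63 to −0.40). In control and case, Pde3a had 30 and 29 UMIs and Pde3b 26 and 31. Gnaq had 13 in each library and Plcb4 42 and 52. Under TMM scaling only Agtr1b and Pde3a of the further list were called, and after thinning none of these 4 endothelial falls was. Pde3b and Gnaq were also not called with doubled gate thresholds, nor Plcb4 in whole clusters or with equal weight per cell. The filter of 50 CPM and 50 UMIs called Plcb4 alone, and the 4 genes were not read within single clusters. Of the genes that act on the products of Nos3 and Edn1, Ece1, which cleaves the endothelin precursor, had 615 and 424 CPM, a log2 ratio of −0.54 (−0.76 to −0.32), and Cav1, which binds the synthase in caveolae, 1791 and 1323 CPM. In fibroblast-gated cells 25 passed and 0 were called. The median log2 ratio of the list was −0.26, −0.20 and −0.36 in SMC-, fibroblast- and endothelial-gated cells, each below the median of all genes tested.

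Finally, each gene with at least 50 CPM in some group was set beside 5276 other genes over 19 sums of cells (classes or subsets in each library with at least 30 cells), by Pearson's r of log2(CPM + 1). The sums share 2 libraries and differ in depth, so the values only describe. Nos3 was most like Fam107a, Tal1 and Ptprr (r of 0.97, 0.96 and 0.96), and Edn1 like Shroom4, Nos3 and Cavin2 (0.94, 0.93 and 0.92). Ace was nearest to Heg1, Ramp2 and Dkk2 (0.97, 0.95 and 0.94). Ednrb was nearest to Litaf, Fosl1 and Abca1 (0.95 each), and Agtr1a to Loxl2, Sfrp4 and the gate marker Dcn (0.97, 0.96 and 0.96). Gucy1a1 followed Vcl, Pcp4l1 and P2rx1 (0.98, 0.96 and 0.95), and Gucy1b1 a different group, Ccn3, Inpp5a and Mark1 (0.94, 0.92 and 0.92).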

How the data were processed

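Single-cell RNA of rat carotid arteries was measured in a control and a case library. The deposited matrix holds raw UMI counts, which the authors obtained by Cell Ranger 3.1.0 with its internal STAR. Their processing notes name Rnor_6.0 and Seurat. Barcode suffixes carry no group name and were assigned to libraries by the barcode numbers stated in the methods, 5656 for case and 3321 for control. Whether the counts were down-sampled before deposit is not given in the sources used here. The libraries share 21 barcode sequences, 2 of them among gated cells.

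Cells with under 20% mitochondrial UMIs, within 2 SD of the mean log10 UMIs and genes and within 3 robust SD of their linear fit were kept, 2718 control and 4913 case cells. Gated cells needed at least 1000 UMIs and 3 different markers of a class, with at least 1% of UMIs in SMC, 2% in fibroblast, 0.1% in endothelial, 0.3% in macrophage, 0.2% in Schwann or 0.05% in T cell markers. Cells meeting several gates were mixed (38 control, 45 case). Doublets (44 of 7631 by Scrublet) were left in.

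UMIs were summed per class and library and given as CPM. A change was called at 2-fold or more with a 95% interval excluding no change, among genes with a mean of 10 CPM and 20 UMIs in sum. A count of 0 was given the floor of 3 UMIs. The genes named are all listed members, those called in the further list (at most 4 rises and 4 falls a class), and the 3 genes most like each member. Members, subsets, lists and tests were chosen with earlier results of these data known. Other genes with values were chosen after their values were seen. Alternatives were other UMI, mitochondrial, gate and level limits, Leiden clusters (resolution 0.8), doublet removal, TMM scaling, thinning and equal weight per cell. Endothelial values by cluster were added after seeing the data. Scripts were tested on simulated data. Tools were scanpy 1.11.5, scipy 1.17.1 and pandas 2.3.3 under Python 3.11.15, and edgeR 4.0.16 (TMM factors only) under R 4.3.3.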

Additional observations from a re-analysis of the deposited data

Results flagged for a closer look

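The case-to-control ratio of Ednrb had opposite signs in different classes. Its log2 ratio of case over control was 1.91 in SMC-gated cells, on 5 and 21 UMIs, and −0.55 in fibroblast-gated cells, on 380 and 230 UMIs. In endothelial-gated cells it was at least 5.32-fold higher in case with the 0 control UMIs set to the floor of 3, on 40 case UMIs. The exact interval of that log2 ratio began at 2.05, and the gene passed the filter through the case library only. Of the 40 UMIs, 37 lay in 1 cluster with 7 control cells, where a difference was not detectable. The SMC value does not hold: 1 cell held 9 of the 21 UMIs, and the ratio was −0.14 with doubled and 4.37 with halved gate thresholds. With 1 library per group the difference between the classes was not tested.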

How the results depend on the processing

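The data limit every comparison to 1 library per group, so no library could be left out. No paired analysis was possible because each group is 1 library and the columns carry no replicate numbers. The case library was shallower per cell, and 55 control endothelial-gated cells bound what could be seen there. Over 10 alternatives, the number of the 9 genes called stayed at 0 in SMC-gated and fibroblast-gated cells. In endothelial-gated cells it went from 3 to 1 under TMM scaling, where only Ednrb was called, and lay between 1 and 3 in all. Ednrb itself was not called after thinning (0 and 15 UMIs) or with a filter of 50 CPM and 50 UMIs, and in whole clusters it had 2 and 48 UMIs, a log2 ratio of 3.04 (1.11 to 6.13). The number of called genes in the further list went from 6 to 2 under TMM scaling and to 1 with the filter of 50 CPM and 50 UMIs. Agtr1b was called under every alternative but that filter, where its mean was too low. The class with the highest level was the same for all 8 ranked genes under each of 8 alternatives in case, and in control for 8 or, after thinning, for 7, since Ace then had too few UMIs to be ranked. Within the larger endothelial cluster, an alternative chosen after seeing the data, the ratios of Nos3 and Ace were under 2-fold (−0.54 and −0.80). Of 164 single log2 ratios under alternatives, 154 lay within the counting interval of the main value and 10 outside it. Among those outside, in fibroblast-gated cells, were Ednra (−0.87 with doubled gates, 0.14 thinned), Ednrb (−0.87 with doubled gates, −0.82 thinned) and Gucy1b1 (−1.05 thinned).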
